A study of Mus musculus with 6 samples.

Results

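The genes described here make and sense eicosanoids, the signalling lipids cut from arachidonic acid, in mouse macrophages of the M1 type, grown from bone marrow and labelled NSUN2-KO or NC. The members were the rows of the deposited expression table with the symbols Pla2g4a, Ptgs1, Ptgs2, Ptges, Tbxas1, Alox5, Alox5ap, Lta4h, Ltc4s and Ltb4r1. All 10 were found among the 54532 genes of the table. Both groups, NSUN2-KO and NC, had received LPS with IFN-γ, the stimuli that bring macrophages to the inflammatory M1 state. Each group had 3 libraries, which the series gives as biological replicates, although its design text elsewhere mentions a smaller number. NSUN2 is a methyltransferase that puts 5-methylcytosine on tRNAs and other RNAs. The strain, age and sex of the mice, the way the knockout was made, the meaning of NC and the dose and time of LPS and IFN-γ are not stated by the labels. No unstimulated samples were analysed here.

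Arachidonic acid is released from membrane phospholipids by cytosolic phospholipase A2 and then enters either of the main branches. In the prostanoid branch a cyclooxygenase makes prostaglandin H, which terminal synthases turn into prostaglandin E, thromboxane and others. In the leukotriene branch 5-lipoxygenase, helped by its activating protein, makes leukotriene A, from which a hydrolase makes leukotriene B and a synthase makes leukotriene C. Macrophages are a classical source of both kinds of lipid, and LPS is a classical inducer of the cyclooxygenase encoded by Ptgs2.

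Some facts of the whole series stand beside every result. The FPKM values (fragments per kilobase of gene, scaled to the size of the library) corresponded to 35019033 to 40105614 reads per NSUN2-KO library and 38516800 to 45636131 reads per NC library. Nsun2 itself measured 0.967, 1.36 and 0.863 FPKM in NSUN2-KO replicates 1 to 3, against 1.88, 2.04 and 1.84 FPKM in NC replicates 1 to 3. It was lower in the knockout libraries but not absent (log2 fold change -0.51, SE 0.10, limma adjusted p = 0.0228). Of the genes on the Y chromosome, Kdm5d, Uty, Eif2s3y and Ddx3y had no reads in any NSUN2-KO library and were expressed in all NC libraries, where Ddx3y averaged 6.57 FPKM. Xist, the RNA of the inactive X chromosome, was present in all libraries, with 30.6 ± 1.20 FPKM in NSUN2-KO and 14.5 ± 0.88 FPKM in NC (SD, n = 3 each). Each NC library thus held both Xist and Y-linked reads, and whether it pooled male and female cells is not stated. The sex of the donors, or such pooling, and the genotype therefore cannot be told apart in any comparison here. All 10 fixed macrophage markers were expressed, led by Lyz2 at 1163 FPKM in NSUN2-KO and 1736 FPKM in NC. Their summed level was 3397 to 3437 FPKM in NSUN2-KO libraries and 3963 to 4051 FPKM in NC libraries, a gap made up mostly by Lyz2. In NSUN2-KO 1 marker was higher (Cd14) and 4 were lower, beside 4.19% and 4.30% of all tested genes. Adgre1, Csf1r, Itgam, Mertk and Trem2 were not called. No T and NK cell, B cell, eosinophil or stromal marker reached a mean of 1 FPKM. Stromal markers nevertheless summed to 0.713 to 0.996 FPKM in NSUN2-KO libraries and 1.52 to 1.72 FPKM in NC libraries, without overlap. That gap came mostly from Col1a1 (means of 0.279 FPKM in NSUN2-KO and 0.950 FPKM in NC) and Col1a2 (0.154 and 0.415 FPKM). Dcn went the other way (0.286 and 0.131 FPKM), and Pdgfrb was similar in both groups (0.0769 and 0.0723 FPKM). The sums of T and NK cell and of B cell markers overlapped between the groups, and those of eosinophil markers are given below.

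The sequences just upstream of the 4 members that changed are shown first, since a gene start carries sequences that transcription factors read. They come from RefSeq (GRCm38.p6), which held a window for 9 of the 10 members and none for Alox5ap. Each window runs from 250 bases before the annotated start to 50 bases after it, and the 250 upstream bases are printed 5′ to 3′. Capitals mark matches to any of the 11 motifs searched on both strands. The RefSeq starts of Ptgs2 and Ltb4r1 are also the gene starts of the deposited table, whereas those of Ptges and Tbxas1 lie 26566 and 43582 bases inside the gene as the table has it.
Ptgs2 (chr1:150099781-150100030, plus strand): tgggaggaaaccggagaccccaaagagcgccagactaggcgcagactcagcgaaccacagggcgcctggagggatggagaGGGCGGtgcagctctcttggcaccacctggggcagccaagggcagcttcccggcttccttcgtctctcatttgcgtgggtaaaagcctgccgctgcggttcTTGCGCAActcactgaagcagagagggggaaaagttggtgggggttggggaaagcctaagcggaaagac
Ptges (chr2:30903298-30903547, minus strand): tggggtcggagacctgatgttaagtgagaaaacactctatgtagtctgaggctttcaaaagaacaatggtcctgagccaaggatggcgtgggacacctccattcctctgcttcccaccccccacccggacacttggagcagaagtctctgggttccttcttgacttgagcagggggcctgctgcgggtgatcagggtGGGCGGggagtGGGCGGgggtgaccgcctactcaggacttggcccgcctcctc
Tbxas1 (chr6:38918736-38918985, plus strand): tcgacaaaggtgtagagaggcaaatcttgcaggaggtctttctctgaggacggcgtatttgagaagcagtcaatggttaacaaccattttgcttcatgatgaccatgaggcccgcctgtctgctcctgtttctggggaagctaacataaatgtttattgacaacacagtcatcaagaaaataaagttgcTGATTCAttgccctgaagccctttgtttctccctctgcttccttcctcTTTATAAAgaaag
Ltb4r1 (chr14:55765712-55765961, plus strand): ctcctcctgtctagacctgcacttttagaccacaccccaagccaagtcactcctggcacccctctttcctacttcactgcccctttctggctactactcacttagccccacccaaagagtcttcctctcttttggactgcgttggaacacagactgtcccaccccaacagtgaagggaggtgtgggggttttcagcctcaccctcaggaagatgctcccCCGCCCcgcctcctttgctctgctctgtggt

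The Ptgs2 window held the C/EBP motif TTGCNNAA from 69 to 62 bases before the start, a motif found in 10.8% of all 32851 windows. It also held the GC box GGGCGG, which 35.7% of windows have. In the 50 bases after its start it held the CRE half-site TGACG (20.8% of windows) at bases 14 to 18 and the E-box CACGTG (7.15%) at bases 17 to 22, which overlap each other. The E-box contains ACGTG, the core of the hypoxia response element, which 19.6% of windows hold. The Ptges window held the GC box at 2 places and the Ltb4r1 window held it at 1 place, on the other strand. The Ltb4r1 window also had GGAAGT, the core shared by ETS factors and PU.1 (23.8% of windows), on the other strand at the first 6 bases of the gene. The Tbxas1 window held the AP-1 motif TGANTCA (7.81% of windows) and TATAAA (13.6% of windows), where TATAAA lies on both strands in overlapping letters 13 to 6 bases before the start. None of the 4 windows held the full CRE TGACGTCA (1.79% of all windows), the interferon response motif (3.44%) or the NF-kB consensus (4.51%). A match is a description of letters, and no motif was common to all 4 windows.

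The NSUN2-KO macrophages had more mRNA for the inducible cyclooxygenase (Ptgs2) and the inducible prostaglandin E synthase (Ptges), and less for thromboxane synthase (Tbxas1) and the leukotriene B receptor (Ltb4r1). Of the 10 members, 7 had a mean of at least 1 FPKM and were tested in a limma fit over 9443 genes. Ptgs2 and Ptges were higher in NSUN2-KO, Tbxas1 and Ltb4r1 were lower, and Pla2g4a, Alox5ap and Lta4h did not pass an adjusted p of 0.05. Among all tested genes 8.49% were called in either direction, 4.19% higher and 4.30% lower. NSUN2-KO and NC values did not overlap in 6 of the 7 tested members, Lta4h being the exception, and in 31.1% of all tested genes. The median log2 fold change was -0.11 over the 7 tested members and -0.01 over all tested genes, and the median size of the change, whatever its sign, was 0.25 and 0.08. The members were chosen with earlier results of these data known, so these counts are a description.

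**Figure D1:**
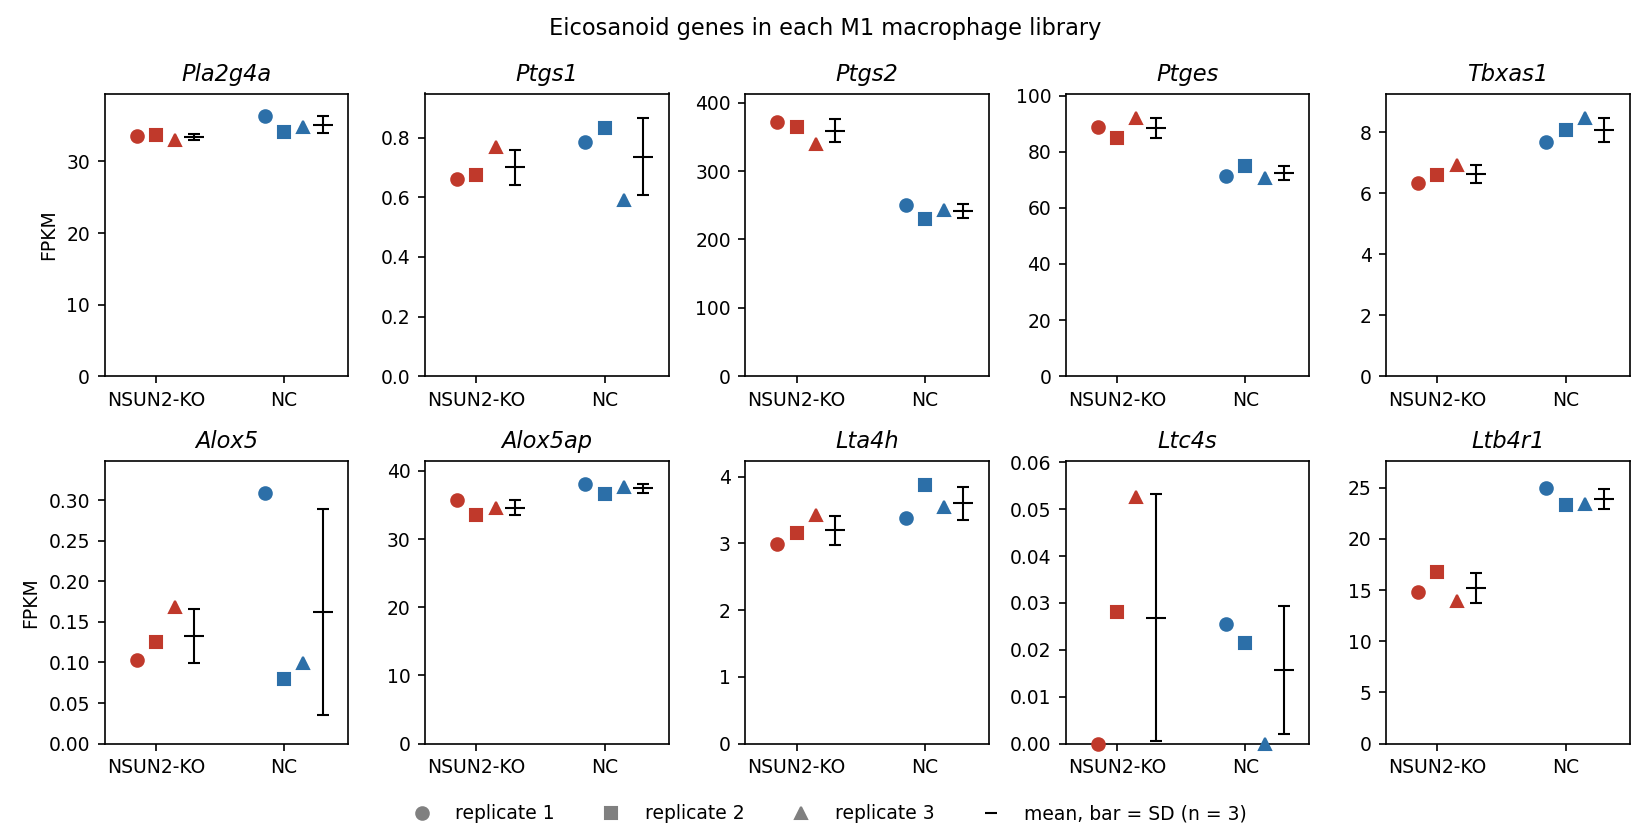
FPKM of the 10 members in each library (y axis, from 0, a scale of its own for each gene) for NSUN2-KO (red) and NC (blue), with symbols for replicate number and a bar for mean and SD. Ptgs2 and Ptges lie higher in all NSUN2-KO libraries, Tbxas1 and Ltb4r1 lie lower in all of them, and Ptgs1, Alox5, Lta4h and Ltc4s overlap between the groups.

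The levels of the members spanned a wide range on the FPKM scale, which is per length and so can be compared between genes. Ptgs2 was by far the most abundant, ranking 137 of 9443 tested genes, followed by Ptges at rank 521. Alox5ap and Pla2g4a came next, with overlapping ranges in NSUN2-KO (33.5 to 35.8 FPKM for Alox5ap and 33.0 to 33.7 FPKM for Pla2g4a) but not in NC (36.7 to 38.0 FPKM and 34.1 to 36.4 FPKM). Below them, without overlap between neighbours, stood Ltb4r1, Tbxas1 and Lta4h. Ptgs1, Alox5 and Ltc4s had means under 1 FPKM, so the enzymes that open the leukotriene branch and its cysteinyl arm were the least expressed of the set.

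Pla2g4a encodes cytosolic phospholipase A2, the enzyme that frees arachidonic acid for both branches. It measured 33.5, 33.7 and 33.0 FPKM in NSUN2-KO replicates 1 to 3, against 36.4, 34.1 and 34.9 FPKM in NC replicates 1 to 3. All NSUN2-KO values were below all NC values, but the gap was small and the test did not call it (log2 fold change -0.07, 95% confidence interval -0.15 to 0.01, adjusted p = 0.268). The difference was called in 1 of 18 alternatives, the removal of the trend over GC content and gene length within each library (log2 fold change -0.11, adjusted p = 0.0436).

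Ptgs2, the inducible cyclooxygenase, measured 371.7, 364.9 and 339.7 FPKM in NSUN2-KO replicates 1 to 3, against 251.1, 230.3 and 242.9 FPKM in NC replicates 1 to 3. Every NSUN2-KO library was above every NC library, and the gap between the groups was wider than the spread within either. The NSUN2-KO mean was 1.49 times the NC mean (log2 fold change 0.57, SE 0.05, limma adjusted p = 0.000623), a change larger in size than that of 99.0% of tested genes. These values rested on 43555 to 68420 reads per library. Permuting the 6 values exactly (two-sided) gave p = 0.1, the smallest that 3 against 3 libraries can give. The gene lies at chr1:150100031-150108227 on the plus strand (ENSMUSG00000032487), 4580 bases in length as counted by the authors, and no other gene of the table overlaps it.

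Named after their values were seen, the transcripts around Ptgs2 were also read. Ptgs2os, on the other strand, starts 68 bases from the start of Ptgs2, inside the upstream sequence printed above. It was below the filter, with 0.816, 0.810 and 0.848 FPKM in NSUN2-KO replicates 1 to 3, against 0.580, 0.656 and 0.501 FPKM in NC replicates 1 to 3, without overlap. Ptgs2os2, a non-coding RNA 50816 bases beyond the end of Ptgs2, averaged 5.67 FPKM in NSUN2-KO and 4.55 FPKM in NC and was called higher (log2 fold change 0.26, adjusted p = 0.0278). Pla2g4a lies 138741 bases to the other side.

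Dendritic cells, which express Ptgs2 when they mature, had 2 of 9 markers tested. The summed level of these markers was 8.73 to 9.997 FPKM in NSUN2-KO libraries and 5.44 to 6.59 FPKM in NC libraries. Ccr7 was called higher, with 5.24 FPKM in NSUN2-KO and 2.98 FPKM in NC, beside 4.19% of all tested genes. Xcr1, with 3.21 FPKM in NSUN2-KO and 2.41 FPKM in NC, was not called (limma adjusted p = 0.0768). Of the 9 markers 4, Flt3 and Zbtb46 among them, averaged under 0.1 FPKM. Their part in the Ptgs2 result was not tested.

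Ptgs1 encodes the cyclooxygenase that most tissues make constitutively. It measured 0.660, 0.675 and 0.768 FPKM in NSUN2-KO, against 0.786, 0.832 and 0.592 FPKM in NC, from 90 to 148 reads per library. The groups overlapped, and the exact two-sided permutation test gave p = 0.8. Of the summed FPKM of both cyclooxygenases, Ptgs2 made up 99.6% to 99.8% in the 6 libraries. Their ratio within a library, which the scaling of that library cannot alter, was 563.3, 540.5 and 442.5 in NSUN2-KO and 319.5, 276.7 and 410.4 in NC. The ranges lay apart, but only narrowly between NSUN2-KO replicate 3 and NC replicate 3 (exact two-sided permutation p = 0.1), and the few Ptgs1 reads set the precision.

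Ptges encodes the inducible microsomal prostaglandin E synthase, which works in tandem with the product of Ptgs2. It measured 88.8, 84.9 and 92.1 FPKM in NSUN2-KO replicates 1 to 3, against 71.5, 75.1 and 70.6 FPKM in NC replicates 1 to 3. The groups did not overlap, and the NSUN2-KO mean was 1.22 times the NC mean (log2 fold change 0.29, SE 0.04, adjusted p = 0.00647). Its 95% confidence interval, 0.19 to 0.38, lay below that of Ptgs2, 0.46 to 0.67, though the difference between both genes was not tested. The gene lies at chr2:30889471-30929863 on the minus strand (ENSMUSG00000050737) and spans the pseudogene Gm13400, listed at 0.545 to 2.62 FPKM.

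Tbxas1 encodes thromboxane A synthase, which competes for the same prostaglandin H and is a typical gene of macrophages and platelets. It measured 6.36, 6.59 and 6.94 FPKM in NSUN2-KO replicates 1 to 3, against 7.70, 8.07 and 8.48 FPKM in NC replicates 1 to 3. No values overlapped, and the NSUN2-KO mean was 0.820 of the NC mean (log2 fold change -0.25, SE 0.05, adjusted p = 0.0278). This call was the least firm of the 4: it was kept in 11 of 18 alternatives. The 7 that ended it include the fits without NSUN2-KO replicate 1 (adjusted p = 0.101), NSUN2-KO replicate 2 (0.0729), NC replicate 2 (0.0858) or NC replicate 3 (0.103), TPM scaling (0.0534) and keeping all low genes (0.0898). The gene (chr6:38875404-39084585, plus strand, ENSMUSG00000029925) shares 762 bases with Hipk2 on the other strand, and no source used here says whether counting used strand. Of the platelet markers, Pf4, which macrophages also express, averaged 111.0 FPKM in NSUN2-KO and 117.3 FPKM in NC and was not called. Of 7 platelet markers 2 were tested by limma, with none called, none at an unadjusted p below 0.05 and none by voom. The list summed to 113.8 to 123.7 FPKM in NSUN2-KO libraries and 121.5 to 130.1 FPKM in NC libraries, and Gp1bb had no reads.

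Both synthases were also set against each other. The ratio of Ptges to Tbxas1 was 14.0, 12.9 and 13.3 in NSUN2-KO libraries and 9.28, 9.30 and 8.32 in NC libraries. The NSUN2-KO ratios all lay above the NC ratios and averaged 1.49 times as high (13.4 ± 0.56 in NSUN2-KO and 8.97 ± 0.56 in NC, SD, n = 3 each, exact two-sided permutation p = 0.1). Ptges was higher and Tbxas1 lower in every NSUN2-KO library, so this separation had to follow and adds no support to either call.

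**Figure D2:**
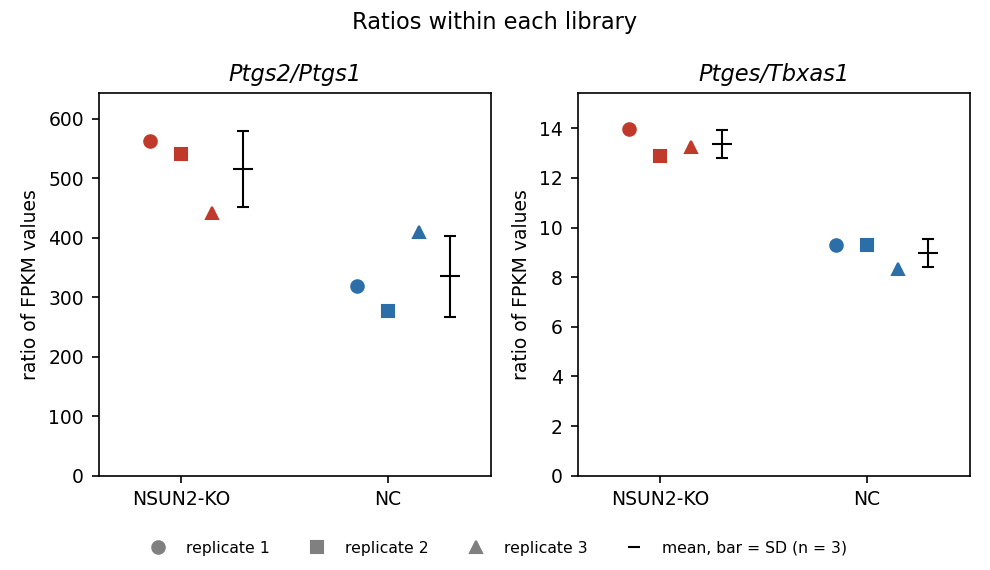
Ratio of the FPKM values of 2 genes within each library (y axes from 0) in NSUN2-KO (red) and NC (blue), with a bar for mean and SD of 3 libraries. The Ptges/Tbxas1 ratios of NSUN2-KO lie well above those of NC, while the Ptgs2/Ptgs1 ratios of replicate 3 come close, at 442.5 in NSUN2-KO and 410.4 in NC.

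In the leukotriene branch the mRNA of the first enzyme was scarce. Alox5, which encodes 5-lipoxygenase, measured 0.103, 0.125 and 0.169 FPKM in NSUN2-KO, against 0.309, 0.0798 and 0.0995 FPKM in NC. These values came from 15 to 49 reads, with 49 in NC replicate 1 alone, and the groups overlapped (exact two-sided permutation p = 1). Ltc4s, the leukotriene C synthase, had 0, 1 and 2 reads in NSUN2-KO replicates 1 to 3 and 1, 1 and 0 reads in NC replicates 1 to 3. This is under the 3 reads that a count of 0 allows, equal to 0.0646 to 0.0843 FPKM in these libraries, so no fold is given and no difference was detectable at this depth. Mast cells and eosinophils, known sources of leukotriene C, had little mRNA here: 6 of 11 mast cell and basophil markers had no reads, and their summed level was 1.503 to 1.68 FPKM in NSUN2-KO and 1.24 to 1.38 FPKM in NC. Eosinophil markers summed to 1.56 to 2.03 FPKM in NSUN2-KO and 1.21 to 1.41 FPKM in NC.

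Alox5ap, whose membrane protein FLAP hands arachidonic acid to 5-lipoxygenase, was by contrast abundant. It measured 35.8, 33.5 and 34.6 FPKM in NSUN2-KO replicates 1 to 3, against 38.0, 36.7 and 37.7 FPKM in NC replicates 1 to 3. All NSUN2-KO values were lower, but the difference was not called (log2 fold change -0.11, 95% confidence interval -0.19 to -0.03, adjusted p = 0.107). The same held under all 18 alternatives. Lta4h encodes leukotriene A4 hydrolase, which makes leukotriene B4. It measured 2.99, 3.16 and 3.43 FPKM in NSUN2-KO and 3.39, 3.88 and 3.54 FPKM in NC. The groups overlapped and the difference was not called (log2 fold change -0.13, 95% confidence interval -0.29 to 0.02, adjusted p = 0.261).

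Ltb4r1 encodes BLT1, the high-affinity receptor through which leukotriene B4 attracts leukocytes. It measured 14.8, 16.8 and 14.0 FPKM in NSUN2-KO replicates 1 to 3, against 25.0, 23.3 and 23.4 FPKM in NC replicates 1 to 3. The highest NSUN2-KO library was well below the lowest NC library, and the NSUN2-KO mean was 0.636 of the NC mean (log2 fold change -0.62, SE 0.07, limma adjusted p = 0.00191). The values rested on 731 to 831 reads in NSUN2-KO libraries and 1276 to 1485 reads in NC libraries, and no other gene of the table overlaps Ltb4r1 (chr14:55765962-55768494, plus strand, ENSMUSG00000046908). Neutrophils also carry this receptor. Of 12 neutrophil markers 5 were tested, and 3 were lower in NSUN2-KO by limma, beside 4.30% of all tested genes. None was higher, and the counts were the same by voom and at an unadjusted p below 0.05. Of all 9443 tested genes, 1403 were called by voom and 2409 had such an unadjusted p, in either direction. Their summed level was 79.9 to 84.0 FPKM in NSUN2-KO libraries and 99.1 to 107.1 FPKM in NC libraries. S100a9, the neutrophil marker with the highest mean, averaged 22.4 FPKM in NSUN2-KO and 28.9 FPKM in NC. S100a8 and Camp were not called (limma adjusted p = 0.429 and 0.756). Over all libraries Ly6g averaged 0.102 FPKM and Mpo 0.0235 FPKM, while Elane and Retnlg had no reads. The part of neutrophils in the Ltb4r1 result was not tested, and in bulk libraries fewer cells of a type and less RNA per cell cannot be told apart.

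**Figure D3:**
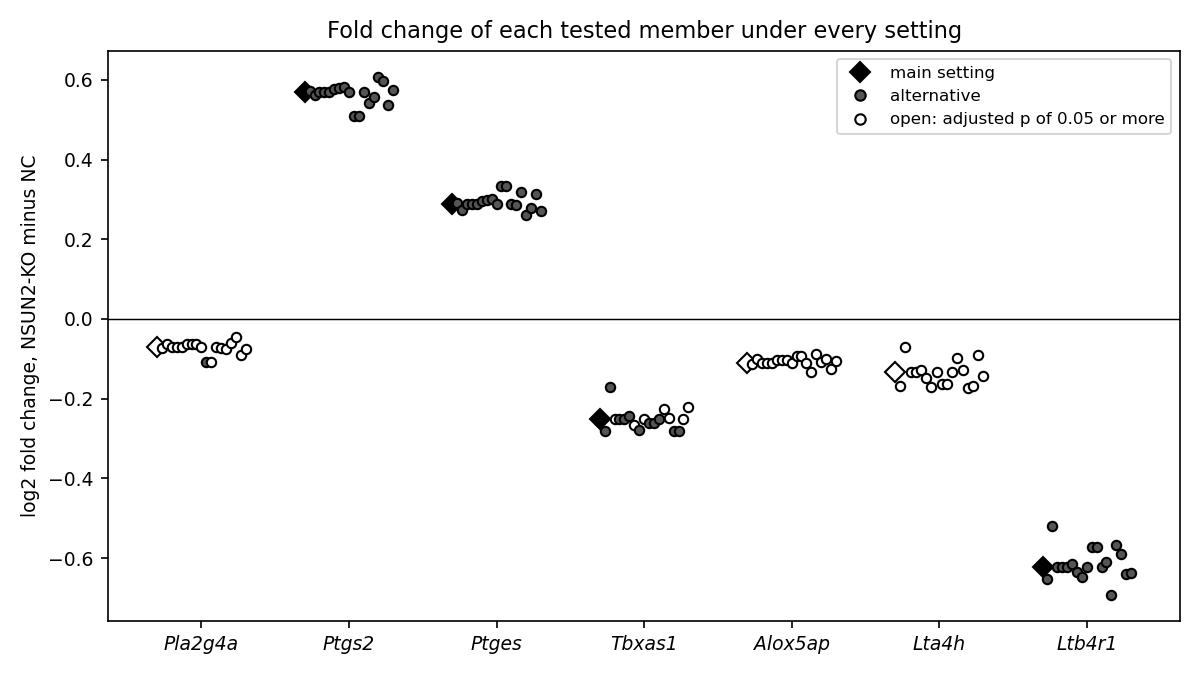
Log2 fold change (NSUN2-KO minus NC, y axis) of the 7 tested members in the main setting (diamond) and in each alternative (circles), open where the adjusted p was 0.05 or more. Ptgs2, Ptges and Ltb4r1 keep their call throughout, Tbxas1 has open circles, and no member changes sign.

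Ptgs2, Ptges and Ltb4r1 kept both direction and call in all 18 alternatives, those without each of the 6 libraries included. The log2 fold change ranged from 0.51 to 0.61 for Ptgs2, from 0.26 to 0.33 for Ptges and from -0.69 to -0.52 for Ltb4r1.

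The members differ in base composition, and fold changes in these libraries followed it. Across 9433 tested genes with a known transcript, a Spearman correlation of -0.374 described log2 fold change against GC content of the longest transcript. It is across genes, which share libraries and are no independent replicates, and it is a description. Ptgs2 has a GC content of 40.0%, lower than most, and tested genes within 1 percentage point of it had a median log2 fold change of 0.07, against 0.57 for Ptgs2. Ltb4r1 has a GC content of 57.8%, higher than most, and genes within 1 percentage point of it had a median of -0.08, against -0.62 for Ltb4r1. Ptges, at 53.1%, moved opposite to its neighbours in GC content, whose median was -0.05. Tbxas1, at 47.9%, lay among genes with a median of 0.00. With the trend over GC content and gene length removed from each library, the log2 fold change was 0.51 for Ptgs2, 0.33 for Ptges, -0.26 for Tbxas1 and -0.57 for Ltb4r1, each at an adjusted p below 0.05.

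**Figure D4:**
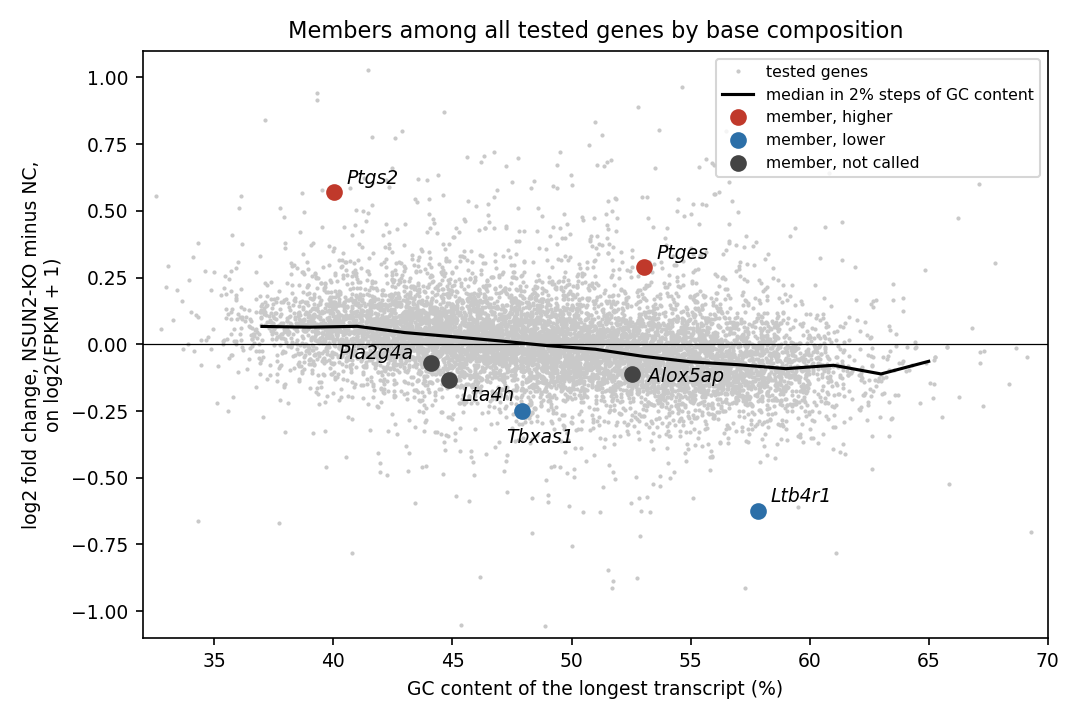
Log2 fold change of tested genes (NSUN2-KO minus NC, y axis) against the GC content of their longest transcript (x axis, %), with the 7 tested members as large points and the median in steps of 2% as a line; 18 genes lie outside the axes. The line falls from left to right, and Ptgs2, Ptges, Tbxas1 and Ltb4r1 lie farther from it than Pla2g4a, Alox5ap and Lta4h.

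For each called member the 3 protein-coding genes with the closest pattern over the 6 libraries were taken, by the root mean square difference of log2 values after subtracting each gene's own mean. Of 8521 candidates, Slc7a11, the cystine transporter, was closest to Ptgs2 at a difference of 0.03, with 22.7 FPKM in NSUN2-KO and 14.8 FPKM in NC. Clec4e, the C-type lectin Mincle, and Enpp4 followed at 0.04 each. Pfkp, a phosphofructokinase, was closest to Ptges at 0.01, then Magee1 and the X-linked Eif2s3x. Zdhhc7, Slc25a28 and Il12rb1 lay closest to Tbxas1, at 0.02 to 0.03. Tgfbi, Ifi27l2a and Nupr1 lay closest to Ltb4r1, at 0.05 to 0.06, and Tgfbi measured 56.3 FPKM in NSUN2-KO and 87.5 FPKM in NC. No member was among the 3 nearest genes of another.

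Beyond the members, 100 genes of the table belonged to 8 lists of other textbook genes of the pathway, and 39 of them were tested. Of these, 5 were higher and 7 lower in NSUN2-KO, or 30.8% called, against 8.49% of all tested genes. Their median log2 fold change was -0.02, against -0.01 for all tested genes. Without 1 library, 1 to 4 were higher and 2 to 4 lower: leaving out NSUN2-KO replicate 1 or NC replicate 2 gave 1 higher and 2 lower, NC replicate 1 or 3 gave 1 and 3, NSUN2-KO replicate 2 gave 2 and 4, and NSUN2-KO replicate 3 gave 4 and 3. With no filter on low values 1 was higher and 1 lower. The fold changes of the 12 called genes kept their sign in each alternative.

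**Figure D5:**
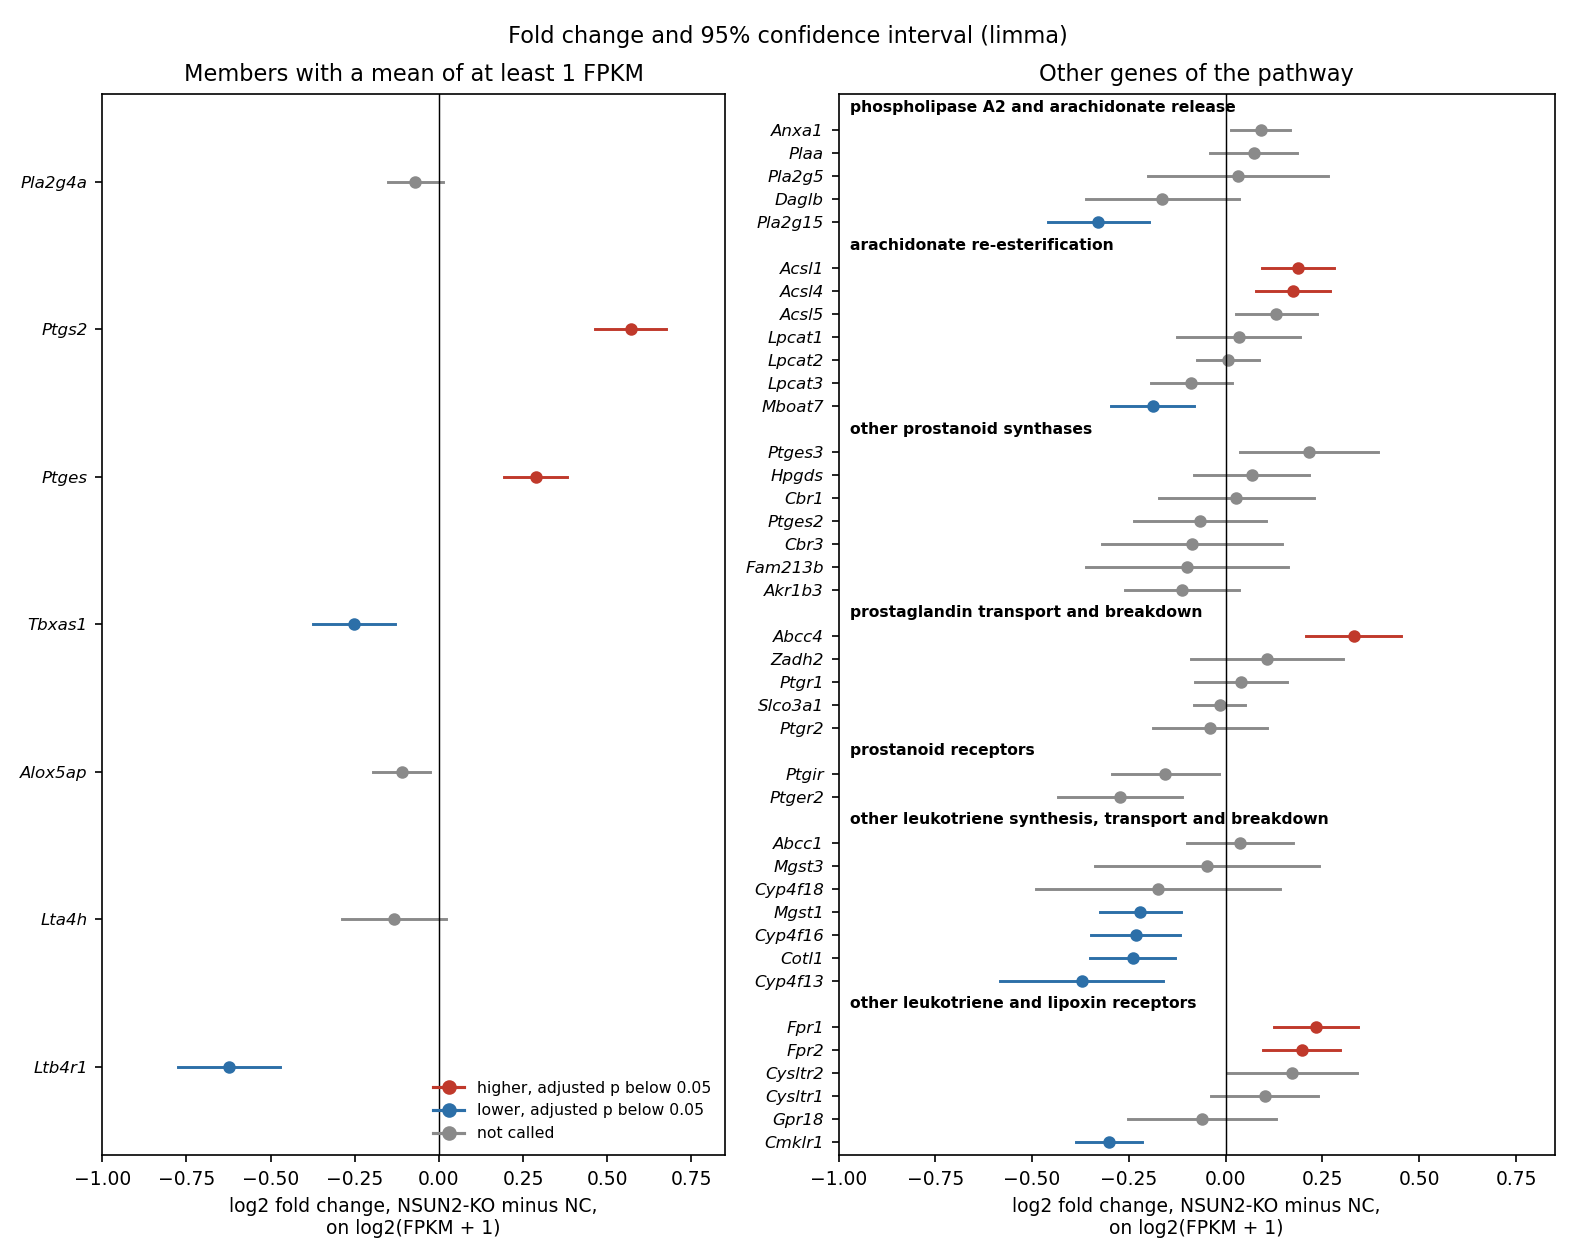
Log2 fold change (x axis, NSUN2-KO minus NC on the log2(FPKM + 1) scale) with the limma 95% confidence interval for the 7 tested members (left) and the 39 other tested genes of the pathway by role (right). Ptgs2 and Ltb4r1, at 0.57 and -0.62, lie farther from 0 than any of the other pathway genes shown.

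Among enzymes that release arachidonate or oppose its release, 5 of 23 were tested and 1 was lower, beside 4.30% of all tested genes. Pla2g15, the lysosomal phospholipase A2, measured 9.57, 8.46 and 8.64 FPKM in NSUN2-KO, against 12.0, 11.1 and 11.1 FPKM in NC (log2 fold change -0.33, adjusted p = 0.0139), with no overlap of the groups. Its call ended with no filter on low values (adjusted p = 0.0626). Anxa1, the phospholipase inhibitor annexin A1 and the most abundant of the list, averaged 109.4 FPKM in NSUN2-KO and 102.7 FPKM in NC and was not called (log2 fold change 0.09, adjusted p = 0.131), nor were Daglb (-0.16) and Plaa (0.07).

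Of 11 genes that put arachidonate back into phospholipids, 7 were tested. Of these, 2 were higher and 1 was lower, beside 4.19% and 4.30% of all tested genes. Acsl1 and Acsl4 encode acyl-CoA synthetases, and that of Acsl4 prefers arachidonate. Acsl1 rose to 47.6 ± 2.25 FPKM in NSUN2-KO, against 41.7 ± 0.38 FPKM in NC, and Acsl4 rose to 29.5 ± 1.02 FPKM in NSUN2-KO, against 26.0 ± 0.87 FPKM in NC (SD, n = 3 each). Acsl4 is X-linked. Mboat7, which links arachidonate to phosphatidylinositol, fell to 6.87 ± 0.24 FPKM in NSUN2-KO, against 7.96 ± 0.23 FPKM in NC. These are small changes, with log2 fold changes of 0.19, 0.17 and -0.19 and adjusted p of 0.0295, 0.0421 and 0.0472, and leaving out single libraries ended most of these calls. That of Acsl1 was kept without NSUN2-KO replicate 2 alone, that of Acsl4 without NSUN2-KO replicate 3 alone, and that of Mboat7 in none of the 6 such fits. Acsl5 was not called (0.13).

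None of 7 tested prostanoid synthases outside the members was called by limma. An unadjusted p below 0.05 was found for 1, beside 2409 of all 9443 tested genes. Limma voom on recovered reads called 1 higher, beside 1403 of all tested genes in either direction. The closest was Ptges3, the cytosolic prostaglandin E synthase also known as the HSP90 co-chaperone p23, with 30.9 ± 2.83 FPKM in NSUN2-KO and 26.4 ± 2.30 FPKM in NC (log2 fold change 0.22, adjusted p = 0.128). Ptges2, the other membrane-associated prostaglandin E synthase, averaged 1.35 FPKM in NSUN2-KO and 1.45 FPKM in NC (log2 fold change -0.07). Hpgds, the haematopoietic prostaglandin D synthase, averaged 10.8 FPKM in NSUN2-KO and 10.3 FPKM in NC (0.07), and Akr1b3 was not called either (-0.11). Of the 3 prostaglandin E synthases Ptges alone passed the test, and whether its change differed from that of Ptges2 or Ptges3 was not tested.

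Of 5 tested genes of prostaglandin transport and breakdown, Abcc4 alone was called, beside 8.49% of all tested genes. Abcc4 encodes MRP4, a pump that exports prostaglandin E. It measured 5.76, 5.93 and 5.76 FPKM in NSUN2-KO, against 4.54, 4.60 and 4.14 FPKM in NC, with no overlap (log2 fold change 0.33, SE 0.05, adjusted p = 0.0110). Its call held in all 18 alternatives. Slco3a1, a prostaglandin transporter and the most abundant of the list, averaged 59.5 FPKM in NSUN2-KO and 60.2 FPKM in NC (log2 fold change -0.02), and the reductases Ptgr1 (0.04) and Ptgr2 (-0.04) were not called.

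Prostanoid receptors were sparsely expressed, with 2 of 10 tested and none called by limma. Both had an unadjusted p below 0.05, as had 2409 of all 9443 tested genes. By voom 1 was lower, beside 1403 of all tested genes called in either direction. Ptger2, the prostaglandin E receptor EP2, measured 1.65, 1.56 and 1.77 FPKM in NSUN2-KO, against 2.21, 2.08 and 2.36 FPKM in NC. The groups lay apart, but the adjusted p was 0.0511 (log2 fold change -0.27). Ptgir, the prostacyclin receptor, averaged 9.44 FPKM in NSUN2-KO and 10.6 FPKM in NC (log2 fold change -0.16, adjusted p = 0.149). Ptger4, the receptor EP4, named here after its values were seen, was below the filter with 0.722 FPKM in NSUN2-KO and 0.624 FPKM in NC.

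Of 7 other tested genes of leukotriene synthesis, transport and breakdown, 4 were called lower, beside 4.30% of all tested genes, and 3 were not called. None was higher by limma, by voom or at an unadjusted p below 0.05. Cotl1, whose product coactosin-like protein binds 5-lipoxygenase as well as actin, fell to 118.5 ± 5.12 FPKM in NSUN2-KO, against 140.2 ± 7.26 FPKM in NC (log2 fold change -0.24, adjusted p = 0.0228). Mgst1, a microsomal glutathione transferase of the same protein family as FLAP and leukotriene C synthase, fell to 45.4 ± 2.55 FPKM in NSUN2-KO, against 53.0 ± 1.16 FPKM in NC (-0.22, adjusted p = 0.0263). Cyp4f13 and Cyp4f16, of the cytochrome P450 family whose members oxidize leukotriene B, had log2 fold changes of -0.37 and -0.23 (adjusted p = 0.0467 and 0.0295). Cyp4f18, of the same family, was not called (-0.18, adjusted p = 0.473), and its groups overlapped. No values of Cotl1, Mgst1, Cyp4f13 or Cyp4f16 overlapped between the groups, as was the case for 31.1% of all tested genes. Of the 6 fits without 1 library, Cotl1 kept its call without NSUN2-KO replicate 2 or NC replicate 1, Mgst1 without NSUN2-KO replicate 2 or 3, Cyp4f13 without NC replicate 3, and Cyp4f16 in none.

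The other receptors of the leukotriene and lipoxin systems moved both ways. Of 6 tested, 2 were higher and 1 was lower, beside 4.19% and 4.30% of all tested genes. Cmklr1, the receptor for chemerin and resolvin E1, measured 12.7, 13.0 and 12.8 FPKM in NSUN2-KO, against 15.7, 16.3 and 16.2 FPKM in NC (log2 fold change -0.30, SE 0.04, adjusted p = 0.00359). Its call was kept in all 18 alternatives. Fpr2, which binds lipoxin A4 and formyl peptides, rose to 145.2 ± 8.19 FPKM in NSUN2-KO, against 126.5 ± 1.29 FPKM in NC (log2 fold change 0.20, adjusted p = 0.0309), and Fpr1, the main formyl peptide receptor and the most abundant of the list, rose to 154.8 ± 9.45 FPKM in NSUN2-KO, against 131.5 ± 3.24 FPKM in NC (0.23, adjusted p = 0.0246). The calls of Fpr1 and Fpr2 were kept without NSUN2-KO replicate 3 and lost without any other single library. Cysltr2, a receptor for the cysteinyl leukotrienes, was not called (0.17, adjusted p = 0.188), and Ltb4r2, the low-affinity leukotriene B4 receptor, was below the filter. None of the 12 other lipoxygenases, epoxide hydrolases and P450 genes reached a mean of 1 FPKM.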

How the data were processed

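RNA-seq was made from total RNA of 3 NSUN2-KO and 3 NC macrophage samples, per the labels. The FPKM values were deposited by the authors in 1 table with gene lengths and GRCm38 positions. Among the tools in the submitters' processing notes are DESeq2 1.20.0, featureCounts 1.5.0-p3, HISAT2 2.0.5, fastp and CASAVA 1.8. Their roles, the annotation and the strand setting are not given in the notes. The design text also mentions a smaller number of replicates than the 3 columns per group. Columns were matched to samples by group and replicate number.

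FPKM times gene length gave whole reads for 100% of values above 0 (tolerance 0.01 reads), at 0.0218 to 0.0285 FPKM per read in a gene of 1 kb. The floor of 3 reads covers counting error only, and the 95% confidence intervals, from limma, rest on the spread between libraries. P-values measure the spread between these libraries, whose animals, single or pooled, are not recorded.

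Genes averaging 1 FPKM or more entered a fit in limma 3.58.1, run in R 4.3.3, of log2(FPKM + 1), a scale that understates changes of low genes, with a mean-variance trend and Benjamini-Hochberg adjustment over all 9443 tested genes. Log2 fold changes are NSUN2-KO minus NC, and an adjusted p below 0.05 was a call. The fit was also run on simulated counts, drawn with the same extra spread for every gene and no trend over GC content. These libraries have such a trend, so that run does not vouch for the calls given here. Single values were compared by exact two-sided permutation tests (scipy 1.17.1). GC content came from GENCODE vM21 transcripts. A planned ratio of Ltc4s to Lta4h was left out, since Ltc4s had 0 to 2 reads per library. Named genes were the members, up to 5 of each list by smallest p or highest level, the closest patterns, and marker genes with the highest mean. The members and lists were chosen with earlier results of these data known. Of 102 listed symbols, 3 did not match the table and are not used here, and Dpep2 has 2 rows.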

Additional observations from a re-analysis of the deposited data

How the results depend on the processing

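The alternatives were other pseudocounts (0.1 and 5), other filters (none, or means of 5 FPKM and more), no mean-variance trend, median-ratio or TPM scaling, voom on whole reads, a replicate block, removal of GC and length trends (also with that block), no X and Y genes, and leaving out each library. No fold change of the 7 tested members or of the 12 other called pathway genes changed sign, and 2 members were higher throughout. With no filter, 265 genes of the table were called (802 in the main fit), 1 member was lower (2 in the main fit), and 1 other pathway gene was higher and 1 lower (5 and 7). Without the trend 526 genes were called, and 1 other pathway gene was higher and 4 lower. TPM scaling gave 1 lower member and 4 lower other pathway genes, and voom called 1403 genes. Deviations from the group means, correlated across genes, were unrelated between libraries of the same replicate number (-0.01, -0.03 and 0.00). Libraries of different numbers gave -0.04 to 0.05. Such values cannot show whether libraries were prepared in pairs. The block called 351 genes, with 1 member lower (Tbxas1 was lost, at an adjusted p of 0.0554) and 1 other pathway gene higher and 4 lower, and together with the removal of GC and length trends 462 genes, with 1 higher and 4 lower. Without 1 library, 270 to 595 genes were called, with 2 members higher throughout and 1 to 2 lower, and 1 to 4 other pathway genes higher and 2 to 4 lower. The cause was not tested, but such fits rest on fewer samples. The NSUN2-KO over NC ratio of Ptgs2/Ptgs1 was 1.41 to 1.73 (1.54 with all) and that of Ptges/Tbxas1 1.44 to 1.52 (1.49 with all) without 1 library. Ptgs1, Alox5 and Ltc4s were below the filter, and no difference was detected for Ptgs1 or Alox5 with no filter (adjusted p = 0.910 and 0.880); Ltc4s had too few reads for a fold.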
